A study of Mus musculus with 9 samples.

Results

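Histone acetyltransferases were followed at the RNA level across 3 culture states of a mouse embryonic stem cell (mESC) line. Members were taken by name: Ep300 and Crebbp, which encode p300 and CBP, Kat2a, Kat2b and Hat1 of the GNAT family, and Kat5, Kat6a, Kat6b, Kat7 and Kat8 of the MYST family. All 10 were present among the 38293 genes counted, and all 10 passed the filter on low counts in each of the 3 comparisons. The cells were E14, a line of strain 129/Ola, with 3 libraries per state, labelled as biological replicates. mESC-2i, labelled naive, grew in N2B27 medium with mLIF, the MEK inhibitor PD0325901 and the GSK3 inhibitor CHIR99021. The mESC-ser libraries, labelled primed, came from cells on gelatin in DMEM with foetal bovine serum and mLIF. Epiblast-like cells (EpiLC) were derived from the naive cells on human plasma fibronectin in N2B27 with activin A, bFGF and KSR. All 9 libraries thus stem from a single line, and the labels do not say whether replicates were separate cultures, so p-values measure the spread between these libraries.

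Histone acetyltransferases move an acetyl group from acetyl-CoA to lysines of the histone tails, and several also accept longer acyl-CoAs. p300 has been proposed to write lactylation from lactyl-CoA, and CBP is its closest relative; both are coactivators at enhancers and promoters. GNAT and MYST enzymes mostly work inside multi-subunit complexes, in which partner proteins place the enzyme on chromatin and direct it to particular lysines. RNA levels say nothing about enzyme activity, protein amount or lactylation itself, none of which these libraries measure.

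Totals ranged from 7187576 to 16829549 counts per library. Fold changes of all protein-coding genes followed exonic length, with a Spearman correlation across genes of 0.28 for mESC-ser compared with mESC-2i, and for EpiLC of -0.30 and -0.50 against the mESC-2i and mESC-ser groups. Each member is therefore given from 2 fits, one scaled by TMM and one that also divides out a trend with exonic length and GC content in every library (termed corrected below), after which these correlations were 0.032, -0.0864 and -0.12. In the corrected fit the shortest of 10 equal length classes of coding genes still had medians of 0.46 and 0.61 on the log2 scale in the 2 EpiLC comparisons, while no member lies in that class. Replicate 3 of mESC-2i stood furthest from its group, with a chi-square per degree of freedom of 12.6 and 28.3 against replicates 1 and 2, and it held the highest mESC-2i level of Ep300, Crebbp, Kat6a and Kat6b, the 4 longest members. Replicate 3 of mESC-ser likewise stood apart, at 10.9 and 11.02 against replicates 1 and 2, which were at 1.61 between themselves, and held the highest mESC-ser level of the same 4 genes. The states carried their markers: the 7 naive genes summed to 3076 to 3156 CPM (counts relative to library size, scaled by TMM) in mESC-2i, 1642 to 1701 in mESC-ser and 90.9 to 103 in EpiLC, and the 5 formative genes to 82.6 to 93.5, 780.3 to 910.3 and 2147 to 2239 CPM. Markers of other cell types moved as well. The 6 fibroblast genes summed to 49.4 to 53.9 CPM in mESC-2i, 58.6 to 77.7 in mESC-ser and 13.3 to 15.0 in EpiLC, while its genes moved apart. Col1a1 was at 22.5, 49.6 and 1.47 CPM in the 3 states and Col3a1 at 12.0, 2.13 and 0.181, whereas Dcn was higher in EpiLC, at 0.470 and 0.165 CPM in the mESC groups and 8.51 in EpiLC, and Lum was at 0 in EpiLC. The 5 trophectoderm genes summed to 92.3 to 103 CPM in mESC-2i, 47.9 to 56.8 in mESC-ser and 10.9 to 11.9 in EpiLC, with Elf5 at 0 in EpiLC. Tfap2c made up most of this sum in mESC-2i (65.5 CPM), and Gata3 was higher in mESC-ser (5.28) than in mESC-2i (1.31). The 4 streak genes stood at 87.2 to 106 CPM in mESC-2i against 4.34 to 5.80 in mESC-ser and 3.39 to 4.56 in EpiLC, and the 5 primitive endoderm genes at 9.09 to 9.46, 13.9 to 15.7 and 1.38 to 2.60 CPM. In mESC-2i most of the streak sum was T (85.5 CPM), and of the endoderm genes Gata4 was lower in mESC-ser (3.39) than in mESC-2i (4.61). The part of these other cell types in the member results was not tested. In these bulk libraries fewer cells of a type and less RNA per cell cannot be told apart.

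The promoters of Crebbp, Kat2b and Kat6b are shown because these 3 members were lower in EpiLC than in mESC-2i in both fits. Each window runs from 250 bases before to 50 bases after a RefSeq start (GRCm38.p6), 5′ to 3′ on the strand of the gene, with every CG in capitals. Crebbp is taken from chr16:4213355-4213654 on the minus strand, Kat2b from chr17:53566721-53567020 and Kat6b from chr14:21499520-21499819, both on the plus strand.
Crebbp promoter: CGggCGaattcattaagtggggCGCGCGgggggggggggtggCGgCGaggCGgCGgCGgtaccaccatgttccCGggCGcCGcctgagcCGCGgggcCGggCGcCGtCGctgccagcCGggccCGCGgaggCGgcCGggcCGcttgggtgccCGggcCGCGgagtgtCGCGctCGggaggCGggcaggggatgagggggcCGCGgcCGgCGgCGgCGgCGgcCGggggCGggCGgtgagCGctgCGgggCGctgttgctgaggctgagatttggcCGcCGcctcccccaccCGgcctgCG
Kat2b promoter: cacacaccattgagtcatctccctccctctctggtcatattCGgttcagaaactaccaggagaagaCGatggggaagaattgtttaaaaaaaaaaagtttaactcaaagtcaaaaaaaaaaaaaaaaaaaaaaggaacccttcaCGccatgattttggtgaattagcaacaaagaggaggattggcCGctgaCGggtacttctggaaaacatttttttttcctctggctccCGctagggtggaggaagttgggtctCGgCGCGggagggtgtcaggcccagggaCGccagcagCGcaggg
Kat6b promoter: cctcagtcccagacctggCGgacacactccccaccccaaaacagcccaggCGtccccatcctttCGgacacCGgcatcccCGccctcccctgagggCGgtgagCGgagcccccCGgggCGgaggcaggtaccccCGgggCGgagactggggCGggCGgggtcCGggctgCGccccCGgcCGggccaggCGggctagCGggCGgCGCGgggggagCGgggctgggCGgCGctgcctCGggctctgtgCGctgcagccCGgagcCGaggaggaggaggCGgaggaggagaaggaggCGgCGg
The motif CG reads the same on both strands and cannot overlap itself. The Crebbp window holds 49 of them, a count reached by 1.02% of the 32851 mouse promoter windows of this length, whose median is 7. By contrast the Kat2b window holds 11 (reached by 41.4%), and the Kat6b window holds 32 (reached by 9.52%). Of the 10 members 9 had a RefSeq window, and the windows of the other 6 at their first listed start held between 12 and 32. Alternative starts are listed for Kat2b, Kat5, Kat6b and Kat8. These counts describe the letters only.

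Levels between genes are compared here as CPM per kb of exonic length. Hat1, a largely cytoplasmic enzyme that acetylates newly made histone H4, was the highest member in every state, at 106.9 ± 12.4 in mESC-2i (mean ± SD, n = 3), at 89.6 ± 10.3 in mESC-ser and at 137.7 ± 4.31 in EpiLC. Kat2a and Kat7 came next in all 3 states, at 40.4 and 30.5 CPM per kb in mESC-2i, and only in mESC-ser did their libraries overlap (49.5 and 46.2). Crebbp was lowest in mESC-2i at 2.41 ± 0.858 and in EpiLC at 0.287 ± 0.112, while in mESC-ser it overlapped with Kat8, the lowest there (8.14 and 8.03). The middle of the order changed with the state. Ep300 was the eighth in mESC-2i at 6.16 ± 1.79, overlapping with Kat6a (6.11), the fourth in mESC-ser at 23.8 ± 2.01, above all libraries of Kat6b (19.2), and the seventh in EpiLC at 3.38 ± 0.601, again overlapping with Kat6a (3.09). Kat2b and Kat6b, and Kat6b and Kat5, also overlapped in mESC-2i, as did Kat2b with Kat6a and Kat6a with Kat5 in mESC-ser. With the longest transcript in place of exonic length, the mean of Kat7 stood above that of Kat2a in mESC-2i and mESC-ser. In mESC-2i the libraries of Kat7 (45.9 to 48.4) and Kat2a (39.1 to 48.8) overlapped. Crebbp was lowest in all 3 states by this length. In mESC-ser the order of Ep300 and Kat6b then turned, with Ep300 at 33.6 to 38.9 and Kat6b at 39.4 to 46.8. Summed per kb, the p300/CBP pair moved from 8.56 ± 2.65 in mESC-2i to 31.9 ± 2.63 in mESC-ser and 3.67 ± 0.662 in EpiLC, the 3 GNAT genes from 162 ± 8.73 to 155 ± 5.28 and 181 ± 3.04, and the 5 MYST genes from 72.9 ± 5.60 to 103 ± 5.62 and 62.5 ± 0.762. None of these sums is corrected for the length trend, and Hat1 made up most of the GNAT sum in every state. In plain CPM the MYST genes summed to 527, 793 and 291 in the 3 states, and the GNAT genes to 521.5, 510 and 556.

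**Figure D1:**
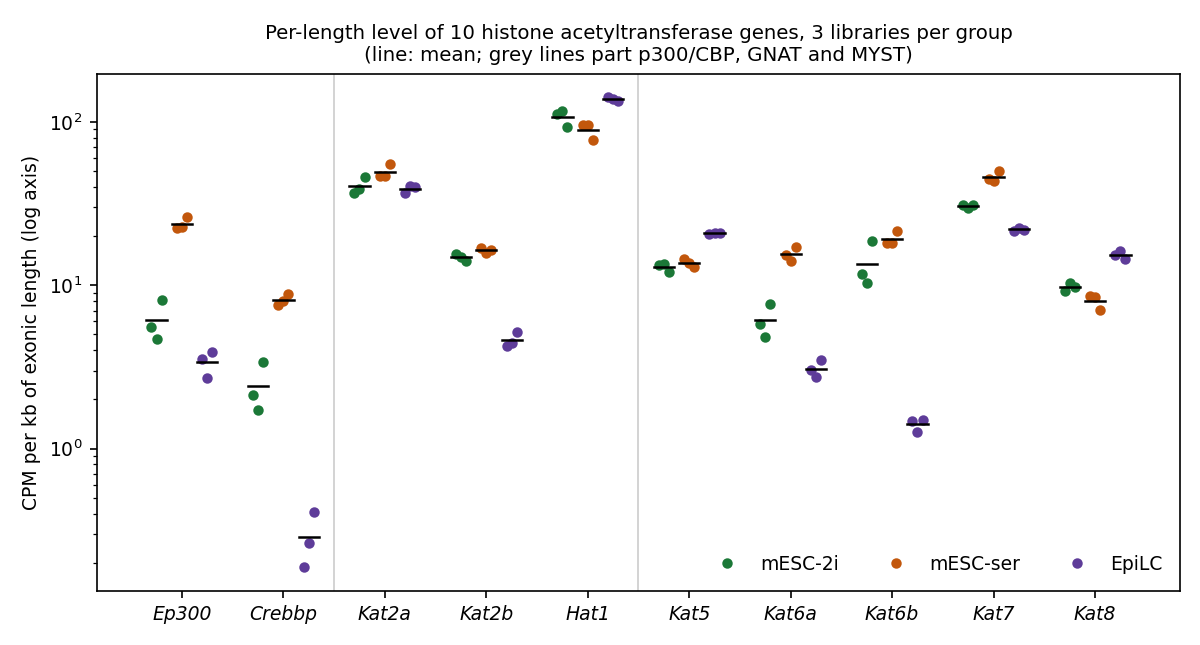
CPM per kb of exonic length (log axis) of the 10 members in each of the 9 libraries, coloured by state, with a line at the mean of 3 libraries. Hat1 lies highest in every state, and Crebbp in EpiLC lies lowest at 0.188 to 0.408.

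The first comparison asked how the enzymes differ between serum and 2i culture. Of the 10 members 4 were called higher in mESC-ser, Ep300, Crebbp, Kat6a and Kat7, where a call means a log2 fold change of more than 0.5 in either direction at an adjusted p under 0.05. Over all tested genes 25.9% were called higher. None of the members was called lower, where the background is 30.3%. The corrected fit called the same 4 genes (background 24.9%), and none lower (28.1%). The median log2 fold change of the members was 0.34 with TMM and 0.36 corrected, beside -0.04 and -0.03 over all genes tested. The libraries of the 2 states did not overlap in 7 of 10 members, beside 70.7% of all genes tested.

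Between EpiLC and the mESC-2i from which they were made, 2 members were called higher, Kat5 and Kat8 (background 32.0%), and 5 lower, Ep300, Crebbp, Kat2b, Kat6a and Kat6b (background 37.8%). Corrected, Kat5 and Kat8 stayed called higher (30.7%), and of the 5 lower only Crebbp, Kat2b and Kat6b did (34.8%). These shares of 20.0% higher and, by TMM, 50.0% lower lie near the background for so few genes, so the counts say little about the members as a set. Medians of the members were -0.69 and -0.18, beside -0.11 and -0.02 over all genes. Groups did not overlap in 9 of 10 members, beside 81.8% of all genes. Scaling by total counts moved the median of all genes to -0.45, and the members then split into 0 higher and 6 lower.

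Compared with mESC-ser, EpiLC had 3 members called higher (Hat1, Kat5 and Kat8, background 35.5%) and 6 lower (Ep300, Crebbp, Kat2b, Kat6a, Kat6b and Kat7, background 37.8%). In the corrected fit Hat1 and Kat8 were higher (31.4%) and 7 were lower (34.0%), the same 6 and Kat2a. The higher share of 30.0% by TMM was near the background, and the lower share was 60.0%. Medians were -1.37 and -1.09 over the members and -0.07 and -0.03 over all genes. All 10 members showed no overlap between groups, beside 85.7% of all genes. With total counts the median of all genes was -0.41 and the split was 1 higher and 7 lower. Both EpiLC comparisons use the same EpiLC libraries, and each pair of comparisons shares a group.

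Exonic length differs widely between the members, from 2886 bases in Hat1 to 16826 in Kat6b. In mESC-ser against mESC-2i, Ep300 and Crebbp changed by 1.89 and 1.70 where the median of their length class was 0.55, and Kat6a by 1.28 where that of its class was 0.34. In contrast, Kat6b, the longest member, changed by 0.44 in the class with the median of 0.55. In EpiLC against mESC-2i the median of the longest class was -0.78. Ep300 at -0.89 lay close to it, whereas Crebbp at -3.08 and Kat6b at -3.29 lay far below. Kat2b, of middle length, changed by -1.71 in a class with a median of -0.36.

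**Figure D2:**
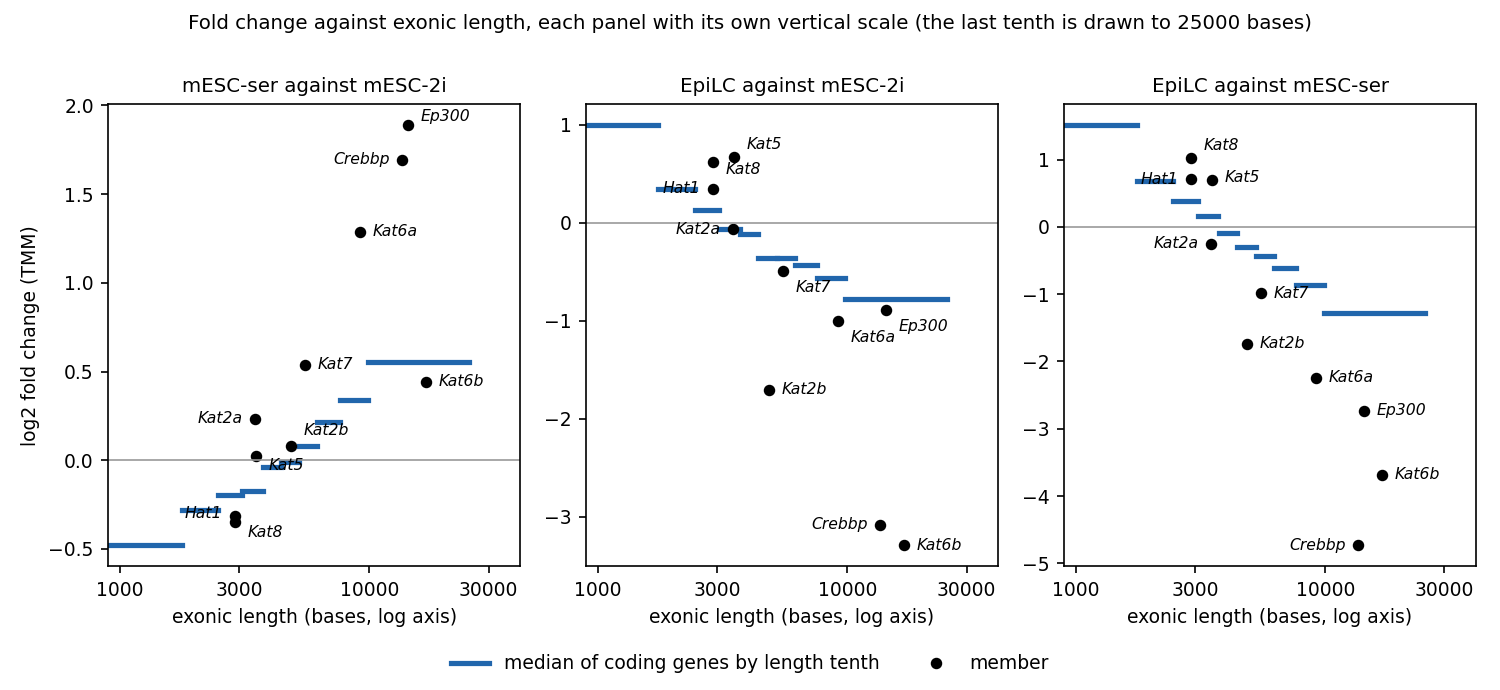
log2 fold change (TMM) of each member against exonic length in bases (log axis) for the 3 comparisons, with blue lines for the median of coding genes in each of 10 length classes. Crebbp and Kat6b lie far below the line of the longest genes in both EpiLC panels, and Ep300 lies beside it in EpiLC against mESC-2i (-0.89 beside -0.78).

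**Figure D3:**
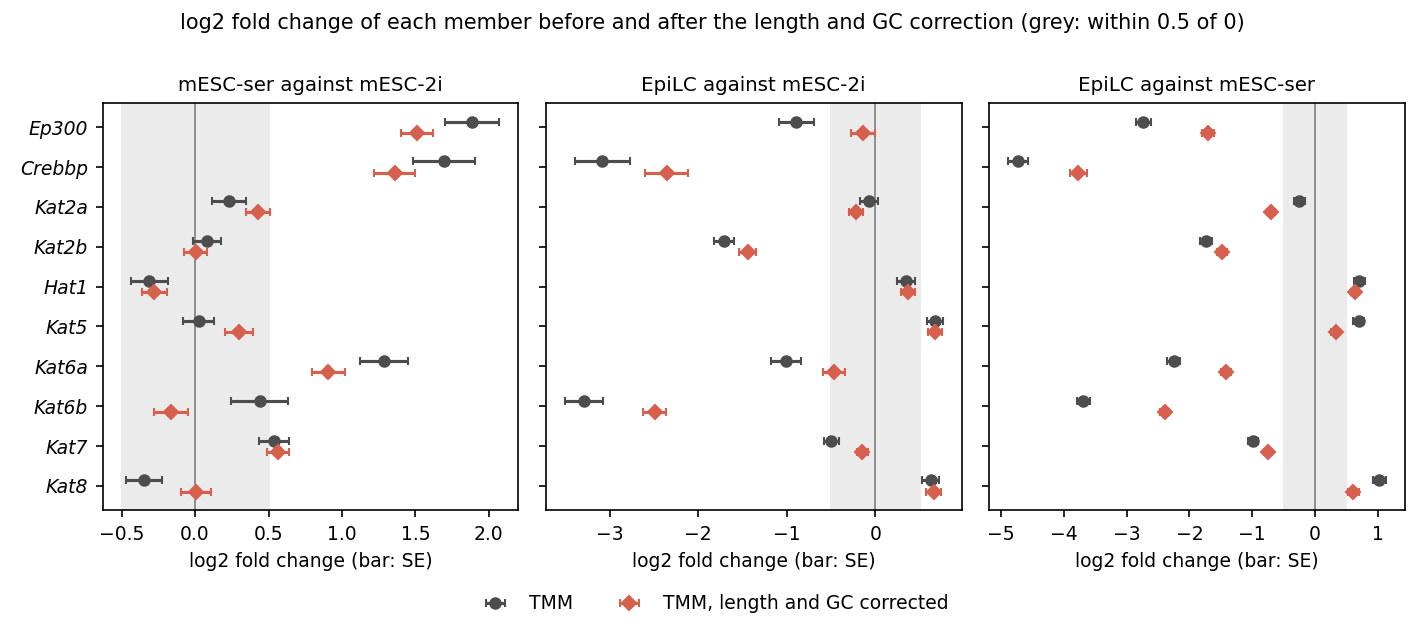
log2 fold change of each member in the 3 comparisons with TMM (circles) and corrected for length and GC content (diamonds), with bars for the standard error and a grey band within 0.5 of 0. The correction moved Ep300 in EpiLC against mESC-2i from -0.89 to -0.14, while Crebbp, Kat2b and Kat6b remained at -1.44 or below.

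Ep300 (ENSMUSG00000055024; mm10 chromosome 15, 81585351 to 81652077, plus strand) encodes p300. Its level was 79.7, 67.4 and 116.5 CPM in replicates 1, 2 and 3 of mESC-2i, 321, 324 and 372 CPM in mESC-ser, against 50.2, 38.8 and 55.7 CPM in EpiLC. The 3 states did not overlap, with mESC-ser highest and EpiLC lowest. Ep300 rose 3.70-fold in mESC-ser against mESC-2i, or by 1.89 on the log2 scale (SE 0.18, edgeR adjusted p = 9.42e-06), and the corrected value was 1.51 (SE 0.11). Against mESC-2i, EpiLC were lower by TMM at -0.89 (SE 0.20, edgeR adjusted p = 0.00171), but not in the corrected fit at -0.14 (SE 0.14, edgeR adjusted p = 0.376). Against mESC-ser, EpiLC were lower in both, at -2.73 (SE 0.11) and -1.71 (SE 0.09).

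Crebbp (ENSMUSG00000022521; chromosome 16, 4081328 to 4213997, minus strand) encodes CBP. It stood at 28.7, 23.4 and 45.6 CPM in mESC-2i, at 102.5, 108.5 and 119.6 CPM in mESC-ser, against at 2.55, 3.58 and 5.53 CPM in EpiLC, where the libraries held 19, 33 and 44 reads. No states overlapped, and every EpiLC library lay several-fold below the lowest mESC library. Crebbp was 3.24-fold higher in mESC-ser than in mESC-2i (log2 1.70, SE 0.21, edgeR adjusted p = 4.88e-05), with a corrected value of 1.36 (SE 0.14). EpiLC were 8.48-fold lower than mESC-2i by TMM (log2 -3.08, SE 0.31, edgeR adjusted p = 5.32e-06) and 5.11-fold lower when corrected (-2.35, SE 0.24, edgeR adjusted p = 6.6e-06). Against mESC-ser the values were -4.73 (SE 0.16) and -3.77 (SE 0.14), the largest decrease of any member in either fit.

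Kat2a (ENSMUSG00000020918; chromosome 11, 100704746 to 100712465, minus strand) and Kat2b (ENSMUSG00000000708; chromosome 17, 53566861 to 53672720, plus strand) encode GCN5 and PCAF, alternative catalytic subunits of the SAGA and ATAC coactivator complexes. Kat2a varied little, at 128, 135 and 159.5 CPM in mESC-2i, 162, 162 and 192 in mESC-ser, against 128, 142 and 138 in EpiLC. The EpiLC and mESC-2i libraries overlapped, and all mESC-ser libraries lay above both. It was called in 1 fit only, lower in EpiLC than in mESC-ser when corrected (-0.70, SE 0.06, edgeR adjusted p = 6.46e-08), where TMM gave -0.26 (SE 0.09). Without replicate 3 of mESC-2i it also passed the threshold in mESC-ser against mESC-2i when corrected, at 0.50 beside 0.43 (SE 0.08) with all libraries. Kat2b behaved otherwise, at 75.6, 72.8 and 68.5 CPM in mESC-2i, 81.7, 77.0 and 80.4 in mESC-ser, against 20.5, 21.6 and 25.1 in EpiLC. All mESC-ser libraries lay slightly above those of mESC-2i, and EpiLC lay far below both. Kat2b was 3.27-fold lower in EpiLC than in mESC-2i (log2 -1.71, SE 0.11, edgeR adjusted p = 2.23e-07) and stayed 2.72-fold lower when corrected (-1.44, SE 0.10). It was also lower than in mESC-ser, at -1.74 (SE 0.10) and -1.48 (SE 0.08). Between the 2 mESC states it was not called in either fit (0.08, SE 0.10, and 0.00, SE 0.08).

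Hat1 (ENSMUSG00000027018; chromosome 2, 71388958 to 71441622, plus strand) was at 321.5, 336 and 268 CPM in mESC-2i, 276, 276 and 224 in mESC-ser, against 409, 399.5 and 384 in EpiLC. The mESC groups overlapped and EpiLC lay above both. The call was restricted to EpiLC against mESC-ser, at 0.71 (SE 0.09, edgeR adjusted p = 1.65e-06) and 0.63 corrected (SE 0.06). Against mESC-2i it passed the threshold on the adjusted p but not on the fold, at 0.35 (SE 0.11) and 0.37 (SE 0.08).

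Kat6a (ENSMUSG00000031540; chromosome 8, 22859535 to 22943259, plus strand) and Kat6b (ENSMUSG00000021767; chromosome 14, 21481434 to 21672478, plus strand) encode MOZ and MORF, which acetylate histone H3 with BRPF scaffold proteins. Kat6a held 52.9, 44.4 and 70.8 CPM in mESC-2i, 141, 129 and 157 in mESC-ser, against 27.9, 25.3 and 31.8 in EpiLC. As for Ep300, no states overlapped, with mESC-ser highest and EpiLC lowest. Kat6a rose 2.44-fold from mESC-2i to mESC-ser (log2 1.28, SE 0.16, edgeR adjusted p = 6.08e-05), or by 0.91 corrected (SE 0.11). In EpiLC against mESC-2i the TMM value of -1.01 (SE 0.17) was called and the corrected value of -0.47 (SE 0.13) was not, although it was past the threshold without replicate 1 (-0.52) or 2 (-0.58) of mESC-2i or without replicate 3 of EpiLC (-0.59). Against mESC-ser both were, at -2.25 (SE 0.10) and -1.41 (SE 0.08).

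For Kat6b the levels were 198, 174 and 314 CPM in mESC-2i, 307, 303 and 361 in mESC-ser, against 24.7, 21.3 and 25.1 in EpiLC. Replicate 3 of mESC-2i lay among the mESC-ser libraries, and EpiLC lay far below both groups. Kat6b was 9.80-fold lower in EpiLC than in mESC-2i (log2 -3.29, SE 0.21, edgeR adjusted p = 2.32e-07) and 5.62-fold lower when corrected (-2.49, SE 0.13, edgeR adjusted p = 3.23e-08). Against mESC-ser it changed by -3.69 (SE 0.10) and -2.40 (SE 0.07). It was not called between the mESC states (0.44, SE 0.19, and -0.16 corrected, SE 0.11), except without replicate 3 of mESC-2i, where the TMM value was 0.74.

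Kat7 (ENSMUSG00000038909; chromosome 11, 95274259 to 95310246, minus strand) encodes HBO1, which works with JADE or BRPF scaffolds. Its level was 172, 163 and 172 CPM in mESC-2i, 247, 241.5 and 278.5 in mESC-ser, against 119, 124 and 121 in EpiLC, again with mESC-ser highest, EpiLC lowest and no overlap. Kat7 was higher in mESC-ser than in mESC-2i by 0.54 (SE 0.10, edgeR adjusted p = 0.000774) and 0.56 corrected (SE 0.07). Without replicate 3 of mESC-ser the TMM value was 0.48, under the fold threshold. EpiLC were lower than mESC-ser by both fits, at -0.99 (SE 0.08) and -0.76 (SE 0.06). Against mESC-2i Kat7 was not called, at -0.50 (SE 0.09) and -0.15 (SE 0.07). The first of these lay just inside the threshold and was past it, at -0.51, without replicate 2 of EpiLC.

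Kat5 (ENSMUSG00000024926; chromosome 19, 5603014 to 5610237, minus strand) encodes TIP60, the catalytic subunit of NuA4. It stood at 46.4, 47.4 and 42.1 CPM in mESC-2i, 50.5, 47.9 and 45.3 in mESC-ser, against 72.1, 73.1 and 73.6 in EpiLC. The mESC groups overlapped, and EpiLC lay above both with little spread. Kat5 was 1.59-fold higher in EpiLC than in mESC-2i (log2 0.67, SE 0.09, edgeR adjusted p = 5.27e-05), with the corrected value at 0.68 (SE 0.08). Against mESC-ser it was called by TMM (0.69, SE 0.08) and not when corrected (0.33, SE 0.07). Exons of Kat5 overlap 426 bases of Rnaseh2c on the opposite strand, the library kit does not mark strand, and Rnaseh2c moved the same way, from 20.4 ± 3.47 CPM (n = 3) in mESC-2i and 20.4 ± 2.87 in mESC-ser to 75.7 ± 7.43 in EpiLC. Its part in the Kat5 values was not tested.

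Kat8 (ENSMUSG00000030801; chromosome 7, 127912516 to 127925837, plus strand) encodes MOF, the histone H4 enzyme of the MSL and NSL complexes. It was at 26.8, 29.9 and 28.3 CPM in mESC-2i, 24.9, 24.4 and 20.3 in mESC-ser, against 44.6, 46.7 and 41.6 in EpiLC. EpiLC were highest and mESC-ser lowest, with no overlap. Kat8 was 1.54-fold higher in EpiLC than in mESC-2i (log2 0.62, SE 0.10, edgeR adjusted p = 0.000186) and changed by 0.66 corrected (SE 0.08). Against mESC-ser it was higher by 1.02 (SE 0.10) and 0.61 (SE 0.09). Both corrected calls were lost when the longest transcript set the length, at 0.40 and 0.34. Kat8 shares 122 exonic bases with Prss8 on the opposite strand, which went from 3.65 ± 0.763 CPM (n = 3) in mESC-2i and 12.1 ± 0.718 in mESC-ser to 26.4 ± 1.66 in EpiLC, and its part in the result was not tested either. With total counts, neither Kat5 (0.33) nor Kat8 (0.29) was called against mESC-2i.

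Paralogues were set against each other inside each library, a ratio that library scaling does not touch. Ep300 exceeded Crebbp per kb by 2.63, 2.74 and 2.42 in mESC-2i and by 2.97, 2.83 and 2.95 in mESC-ser, against 18.7, 10.3 and 9.55 in EpiLC. The Kat2a to Kat2b ratio was 2.36, 2.59 and 3.25 in mESC-2i, 2.78, 2.94 and 3.34 in mESC-ser, against 8.72, 9.18 and 7.68 in EpiLC. Both ratios were larger in EpiLC, with no overlap with either mESC group. The Kat6a to Kat6b ratio was 0.491, 0.467 and 0.414 in mESC-2i, 0.840, 0.782 and 0.7996 in mESC-ser, against 2.07, 2.18 and 2.32 in EpiLC, so that all 3 states were apart. Against mESC-2i, the 3 ratios in EpiLC were 4.72-fold, 3.14-fold and 4.80-fold larger, and against mESC-ser 4.2-fold, 2.82-fold and 2.71-fold. Taken from the corrected fit, the Ep300 to Crebbp change was nearly the same, at 4.65-fold and 4.19-fold, in genes of similar length (14273 and 13540 bases). The change of Kat2a to Kat2b, genes of 3480 and 4867 bases, was smaller when corrected, at 2.33-fold against mESC-2i and 1.72-fold against mESC-ser, and that of Kat6a to Kat6b was 4.06-fold and 1.97-fold. In an exact two-sided permutation test, which cannot go below p = 0.1 with 3 libraries against 3, 8 of the 9 comparisons reached p = 0.1 (0.113 after Benjamini-Hochberg adjustment over the 9), and Kat2a to Kat2b between mESC-ser and mESC-2i gave p = 0.4. Between same-numbered libraries of mESC-ser and mESC-2i each of the 3 ratios was higher in mESC-ser in 3 of 3 pairs, with an exact sign-flip p of 0.25, the smallest that 3 pairs allow. The step over 1 for Kat6a to Kat6b depends on the length assigned to Kat6b, whose exons span 16826 bases and whose longest transcript 7699. Per kb of longest transcript, Kat6a was at 3.06, 2.77 and 3.49 CPM in replicates 1, 2 and 3 of EpiLC, and Kat6b at 3.21, 2.76 and 3.26. By that length Kat6a was thus below Kat6b in replicate 1. In plain counts the Kat6a to Kat6b ratio was 0.226 to 0.268 in mESC-2i, 0.426 to 0.458 in mESC-ser and 1.13 to 1.27 in EpiLC, over 1 in EpiLC only.

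**Figure D4:**
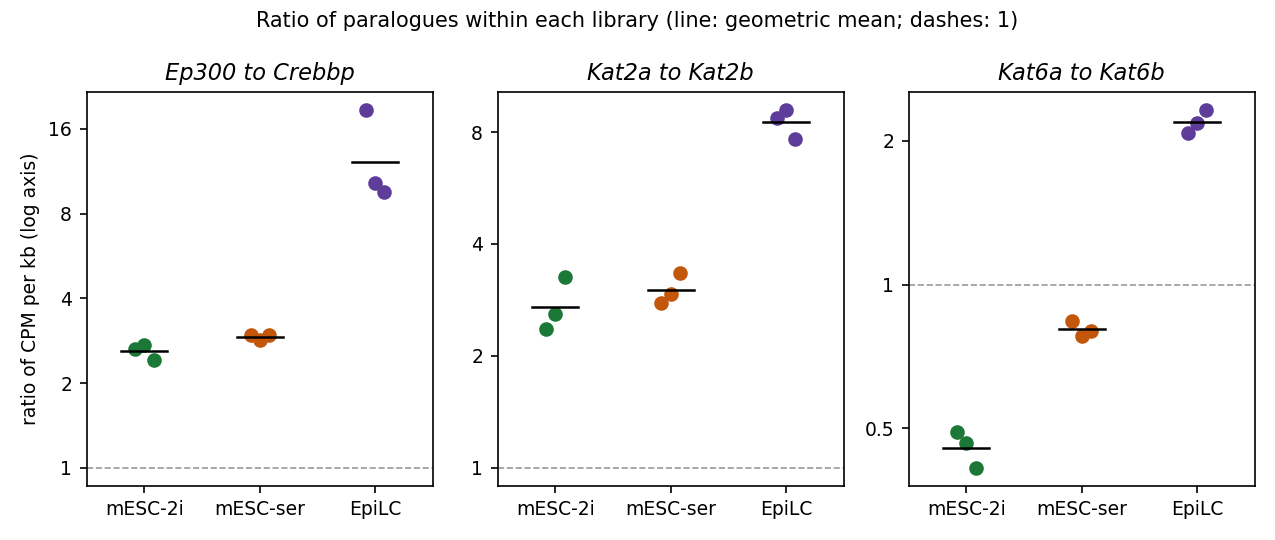
Ratio of CPM per kb of the first to the second paralogue in each library (log axis, each panel with its own scale), with a line at the geometric mean of 3 libraries and a dashed line at 1. EpiLC lie above both mESC groups in all 3 panels, with geometric means of 12.2, 8.502 and 2.188, before any correction for length.

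The partners of these enzymes, and enzymes and readers related to them, were taken from 9 lists of 103 genes in all, 7 of which stand in 2 lists. Between mESC-ser and mESC-2i, 25.9% of all tested genes were called higher and 30.3% lower by TMM, and 24.9% and 28.1% when corrected. In mESC-ser against mESC-2i, scaffolds of Kat6a, Kat6b and Kat7 had 4 of 9 genes called higher and 1 lower, with a median log2 fold change of 0.42 (4 and 0 corrected, 0.35), and p300 and CBP partners 5 of 11 higher and 4 lower, with a median of 0.41 (3 and 4 corrected, 0.26). Jade2, a scaffold of the Kat7 complex, rose by 2.38 (SE 0.14; corrected 2.07), and Ing4 of the same list fell by 0.58 (SE 0.16; corrected -0.48, not called). Ncoa3, a steroid receptor coactivator that binds p300 and CBP, rose by 1.79 (SE 0.14; corrected 1.64), and Cited1, a CBP-binding factor, fell by 1.35 (SE 0.26). Of the MSL and NSL partners of Kat8, 3 of 11 were called higher and 2 lower (2 and 2 corrected), from Hcfc1 at 1.66 (SE 0.15) to Wdr5, also a subunit of ATAC, at -0.57 (SE 0.10; corrected -0.28, not called). SAGA and ATAC subunits had 5 of 24 higher and 1 lower (Wdr5), the same counts as when corrected. NuA4 partners had 6 of 16 higher and 1 lower (4 and 2 corrected), with Vps72 at -0.54 (SE 0.11), although the largest rises of these 2 lists, Trrap (1.00) and Mbtd1 (1.31), were at 0.498 and 0.499 when corrected and no longer called. Among the 13 other lysine and N-terminal acetyltransferases 3 rose and 1 fell (3 and 3 corrected), among them Esco1 at 1.03 (SE 0.11) and the tubulin acetyltransferase Atat1 at -1.30 (SE 0.21), and among the 5 Hat1 partners and chaperones 1 rose by TMM (Nasp, 0.76; corrected 0.20) and Rbbp4, named after its values were seen, was lower when corrected (-0.63, SE 0.18).

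In EpiLC against mESC-2i, 8 of the 11 MSL and NSL partners were called lower and 0 higher, with a median of -0.53, and 5 lower and 1 higher when corrected (median -0.23). Over all tested genes 32.0% were called higher and 37.8% lower by TMM, and 30.7% and 34.8% when corrected. Ogt, the O-GlcNAc transferase of the NSL complex, fell by 2.30 (SE 0.33, corrected -1.82). Its mESC-2i libraries spread widely, at 243 ± 140 CPM (1440 to 5178 counts), beside 50.2 ± 6.16 CPM in EpiLC. p300 and CBP partners had 6 of 11 lower and 3 higher in both fits, with medians of -1.09 and -0.58. Here Ncoa1 fell by 2.48 (SE 0.20) and Carm1, an arginine methyltransferase that acts with p300, rose by 1.32 (SE 0.10). SAGA and ATAC subunits split into 6 higher and 9 lower of 24, and into 6 and 5 when corrected, from Taf10 at 1.73 (SE 0.12) to Supt20 at -3.56 (SE 0.15), the latter at 46.1 ± 4.24 CPM in mESC-2i and 3.96 ± 0.541 in EpiLC. The NuA4 list gave 7 higher and 6 lower of 16, and 7 higher and 0 lower when corrected, from Ruvbl2 (1.42, SE 0.11) to Trrap (-1.17, SE 0.18; corrected -0.34, not called). Among scaffolds of Kat6a, Kat6b and Kat7, Jade2 rose by 2.44 (SE 0.12) and Brd1 fell by 2.33 (SE 0.10), with 2 of 9 higher and 3 lower (median -0.18), and 4 higher and 3 lower when corrected (median 0.15). Of the 13 other acetyltransferases 2 rose and 6 fell in both fits, among them Naa10, the N-terminal acetyltransferase, at 2.84 (SE 0.09) and Clock at -2.62 (SE 0.27). Among Hat1 partners 2 of 5 rose (3 corrected), with Asf1a, a histone H3-H4 chaperone, at 1.39 (SE 0.12).

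Against mESC-ser, EpiLC had 7 of 11 MSL and NSL partners lower and 0 higher (median -0.97), and 6 lower when corrected (median -0.79), with Kansl1 at -2.11 (SE 0.10). Over all tested genes 35.5% were called higher and 37.8% lower by TMM, and 31.4% and 34.0% when corrected. SAGA and ATAC had 11 of 24 lower and 6 higher (median -0.32), and 10 and 5 when corrected (-0.31). p300 and CBP partners had 5 of 11 lower and 3 higher (-0.61), and 6 and 4 corrected (-0.59). For NuA4 the counts were 7 of 16 lower and 6 higher (-0.32), and 5 and 3 corrected, where the median turned to 0.13. Scaffolds of Kat6a, Kat6b and Kat7 went from 5 of 9 lower and 1 higher (-0.55) to 3 and 3 (-0.18), and other acetyltransferases from 6 of 13 lower and 2 higher (-0.24) to 3 and 2 (-0.23). Hat1 partners had 0 lower and 2 of 5 higher (0.28), and 1 lower and 3 higher when corrected (1.197). Jade1 fell by 3.07 (SE 0.12; corrected -2.26), Supt20 by 4.34 (SE 0.12; corrected -3.75), Ncoa1 by 3.00 (SE 0.14; corrected -2.27), Clock by 2.81 (SE 0.15; corrected -1.43) and Trrap by 2.12 (SE 0.10; corrected -0.93). In the other direction, Supt3 of SAGA changed by 2.22 (SE 0.12) and Vps72 of the NuA4 list by 1.23 (SE 0.09). Naa10 changed by 2.46 (SE 0.09), Meaf6, a subunit shared by NuA4 and the scaffold complexes, by 1.10 (SE 0.08), Anp32a, a component of the inhibitor of acetyltransferases, by 1.10 (SE 0.09) and Asf1a by 1.09 (SE 0.09), all called in both fits. Ncoa1, Ncoa3, Carm1, Taf10, Supt20, Ruvbl2, Naa10, Asf1a, Jade1, Kansl1, Ing4, Atat1, Dpf1 and Rbbp4 share exonic bases with another gene. So do Ep400 and Brd2, named below. Counts of all these genes may hold reads of the gene they overlap. No test of a list as a whole was made, and the share of all genes called in each direction, given above for each comparison, is the background of these counts.

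**Figure D5:**
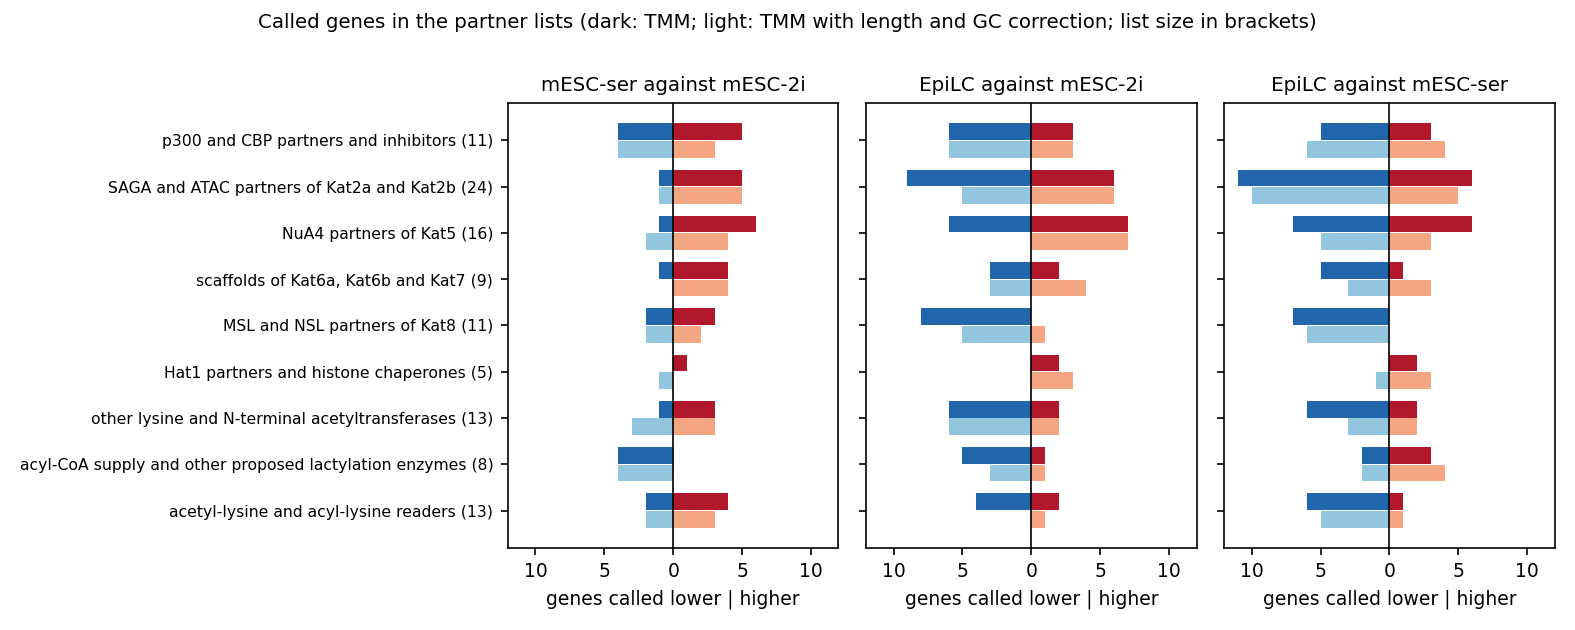
Number of genes called lower (blue, to the left) and higher (red, to the right) in each partner list for the 3 comparisons, dark for TMM and light for the corrected fit, with list sizes in brackets. In the EpiLC panels 8 and 7 of the 11 MSL and NSL partners of Kat8 were lower by TMM (background 37.8% in both). Corrected, 5 and 6 of 11 were lower (34.8% and 34.0%).

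Genes of acyl-CoA supply, and the alanyl-tRNA synthetases Aars and Aars2, which have been proposed to lactylate proteins, formed a list of 8. In mESC-ser against mESC-2i their medians were -0.41 by TMM and -0.52 corrected, and 0 were called higher (background 25.9% and 24.9%). Both fits called 4 of them lower (background 30.3% and 28.1%). These were Acss1, the mitochondrial acetyl-CoA synthetase, at -3.79 (SE 0.13), Acss2, its nuclear and cytosolic counterpart, at -1.32 (SE 0.16), the citrate carrier Slc25a1 at -1.27 (SE 0.10) and Suclg2, a subunit of succinyl-CoA synthetase, at -0.54 (SE 0.12). Acss1 went from 83.9 CPM in mESC-2i to 6.27 in mESC-ser and 9.08 in EpiLC, and its exons overlap those of another gene. Acly, the cytosolic citrate lyase that makes acetyl-CoA, was not called between the mESC states (-0.14, SE 0.10). In EpiLC against mESC-2i, 5 of 8 were lower (background 37.8%) and 1 higher (32.0%), or 3 and 1 corrected (34.8% and 30.7%). Acss1 was at -3.23 (SE 0.13) and Suclg1 at 0.64 (SE 0.14). In EpiLC against mESC-ser, 2 were lower (background 37.8%) and 3 higher (35.5%), or 2 and 4 corrected (34.0% and 31.4%). The called genes ran from Acly at -0.62 (SE 0.08) to Slc25a1 at 1.496 (SE 0.08). Aars was not called by TMM in any comparison, with means of 489, 534 and 551 CPM in the 3 states, and was higher in EpiLC than in mESC-ser when corrected (0.63, SE 0.06). It shares exonic bases with another gene, as does Acss2. Aars2 was lower in EpiLC than in both mESC groups in both fits, at -0.61 (SE 0.13) and -0.54 (SE 0.10) by TMM.

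Readers of acetyl-lysine and acyl-lysine were the last list, with 12 of 13 genes tested. Of these, 4 were higher and 2 lower in mESC-ser than in mESC-2i (median 0.39), 2 higher and 4 lower in EpiLC than in mESC-2i (median -0.23), and 1 higher and 6 lower when EpiLC were set against mESC-ser (median -0.38). The corrected counts were 3 higher and 2 lower, 1 and 0, and 1 and 5. Beside them, 25.9%, 32.0% and 35.5% of all genes were called higher by TMM in these comparisons, and 30.3%, 37.8% and 37.8% lower. Corrected, these shares were 24.9%, 30.7% and 31.4% higher and 28.1%, 34.8% and 34.0% lower. Dpf1, a double PHD finger reader, was higher in mESC-ser than in mESC-2i by 2.07 (SE 0.14; corrected 2.07) and in EpiLC than in mESC-2i by 1.43 (SE 0.15). Brd9, a bromodomain protein, was lower in mESC-ser than in mESC-2i at -0.54 (SE 0.12; corrected -0.73). The YEATS-domain reader Yeats2, a subunit of ATAC, changed by -0.91 (SE 0.20) in EpiLC against mESC-2i (corrected -0.24, not called) and by -1.64 (SE 0.10) against mESC-ser (corrected -0.77). Yeats4 was higher in EpiLC than in mESC-ser by 0.92 (SE 0.10; corrected 0.18, not called).

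Likeness of pattern was measured over 3 states, against 102 candidate genes of the lists. It is the distance between the log2 values of the group mean CPM, after centring each gene. Ep300 was nearest to Ncoa3 (distance 0.14), whose centred means of -0.26, 1.59 and -1.33 stood beside -0.36, 1.59 and -1.23 for Ep300. Kat2b was nearest to Ncoa2 (0.0735), Kat6a to Ep400 (0.185), Kat7 to Brd2 (0.106), Kat2a to Esco2 (0.0558), Hat1 to Rbbp4 (0.147), Kat5 to Mrgbp (0.115) and Kat8 to Suclg1 (0.0449). Crebbp and Kat6b both had Supt20 as the nearest, but at the largest distances of all members (0.62 and 0.465). The CPM behind these distances were not corrected for length or GC content, and the part of that trend in them was not tested. In the corrected fit of mESC-ser against mESC-2i, Ep300 and Ncoa3 were at 1.51 and 1.64, whereas Kat2b and Ncoa2 were at 0.00 and -0.53. With only 3 states these distances are a description.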

How the data were processed

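Poly-A RNA was sequenced as 50 base single-end reads from an unstranded kit. Per the labels, the authors used FastQC 0.11.0, Trim Galore 0.6.6, HISAT2 2.2.1 and Subread 2.0.1 with the build mm10. The authors deposited raw counts of reads for each Ensembl gene. How multiply aligned reads and strand were handled, and the annotation release, are not given in the sources used here. The serum columns were matched to samples by the initials of serum and LIF in their titles. Reads carried no molecular identifiers, so repeated reads of a molecule cannot be told apart.

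Symbols, positions, exonic length and GC content came from GENCODE M21 (GRCm38, the assembly of mm10), which matched 36429 of 38293 genes. Each comparison was fitted on the 6 libraries of its 2 groups in edgeR 4.0.16 (R 4.3.3, limma 3.58.1) with filterByExpr, TMM and the quasi-likelihood F-test. P-values were adjusted by Benjamini-Hochberg over all 15728, 15378 and 15345 genes tested, and a call needed a log2 fold change beyond 0.5 in size at an adjusted p under 0.05. The corrected fit added offsets per library from natural splines of GC content and of log exonic length (5 degrees of freedom each), with TMM set again. The F statistic gave the standard errors (SE). Levels are CPM scaled by TMM over 9 libraries, and log2 CPM in the check of same-numbered libraries used a prior count of 2. The steps were tested on simulated data.

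The members and the gene lists were chosen with earlier results of these data known. All members are named, and from each list, per comparison, the called gene with the largest rise and that with the largest fall, provided the higher group averaged 50 counts or more. For the list of acyl-CoA supply genes the other called genes, Acly, Aars and Aars2 were named after their values were seen.

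Same-numbered libraries were checked by correlating deviations from group means in log2 CPM. For mESC-ser and mESC-2i these were 0.127, 0.180 and 0.340, all over the threshold of 0.1 for pairing. Replicate 1 of mESC-ser with replicate 2 of mESC-2i gave 0.144, above the 0.127 of those both numbered 1. The number is thus no sure sign of pairing there. The values given are from the fit without a block, and the fit with a replicate block is an alternative. The EpiLC comparisons gave 0.0221 to 0.109 and 0.0170 to 0.0339 and did not meet it in every pair. Alternatives were scaling by total counts, upper quartile or RLE, another filter (none, or 10 counts per library), DESeq2 1.42.0, all 9 libraries in one fit, a replicate block, a correction for length only, other thresholds and leaving out each library. A correction by longest transcript, the paralogue ratios from the corrected fit and their sign flips within numbered pairs were chosen after seeing the data.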

Additional observations from a re-analysis of the deposited data

How the results depend on the processing

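Called members numbered 4 for mESC-ser compared with mESC-2i, and 7 and 9 for EpiLC compared with mESC-2i and with mESC-ser. The corrected counts were 4, 5 and 9. Of all tested genes 25.9%, 32.0% and 35.5% were called higher by TMM in these comparisons, and 30.3%, 37.8% and 37.8% lower. Corrected, the shares were 24.9%, 30.7% and 31.4% higher and 28.1%, 34.8% and 34.0% lower. Of all the alternatives, an absolute log2 fold change over 1 moved a count of members by over 1.5 times, to 4 in EpiLC against mESC-2i. No member or ratio changed direction past the threshold. With a replicate block the counts stayed at 4, 7 and 9, and no call of a member changed. With sign flips within numbered pairs, in the place of a block, the paralogue differences between mESC-ser and mESC-2i of 0.17, 0.15 and 0.82 each had an exact p of 0.25. The length and GC correction moved the log2 difference of the Kat2a to Kat2b ratio in EpiLC against mESC-ser from 1.498 to 0.79. Every same-numbered pair met the threshold for pairing of 0.1 in mESC-ser and mESC-2i only, where a differently numbered pair also passed it. In EpiLC against mESC-2i the same-numbered correlations were 0.0221, 0.109 and 0.109, so that replicates 2 and 3 passed it and replicate 1 did not. Against mESC-ser the EpiLC correlations were 0.0170 to 0.0339, all under it. Whether EpiLC libraries are paired by number with those of mESC-2i cannot be told from these values. Leaving out each library in turn gave 3 to 5, 7 to 8 and 9 called members, and 4 to 5, 5 to 6 and 9 with the correction. Over all genes the same fits called 8581 to 9391, 10608 to 11059 and 11183 to 11446 genes by TMM. With the correction these ranges were 8137 to 8788, 9987 to 10227 and 10044 to 10246. Kat6a, at -0.47 corrected in EpiLC against mESC-2i, stayed uncalled in only 3 of the 6 fits that left out a library. Calls of Kat7, Kat8, Kat5 and Hat1 also depended on the setting. Kat7 in mESC-ser against mESC-2i was at 0.49 with total counts and 0.43 with a correction for length only, and in EpiLC against mESC-2i it was called with upper-quartile scaling (-0.52), without a filter (-0.52) and at 10 counts in every library (-0.56). The corrected value of Kat8 in EpiLC against mESC-2i was 0.47 at 10 counts in every library. Hat1 in EpiLC against mESC-ser was at 0.37 with total counts, at 0.35 with a correction for length only and at 0.46 with both the correction and the filter at 10 counts. The cause was not tested. DESeq2 gave the same counts of 4, 7 and 9. Crebbp in EpiLC rests on 19 to 44 reads per library, the lowest depth of any member value.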
